A study of Homo sapiens with 16 samples.

Results

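The genes described here are 10 histone genes whose mRNA can carry a poly(A) tail or whose protein is a histone variant, chosen by symbol: HIST1H2BK, HIST2H2BE, HIST1H2BD, HIST1H2AC and HIST1H1C from the histone gene clusters, and the variant genes H1F0, H2AFZ, H2AFX, H3F3A and H3F3B. All 10 were among the 23260 gene symbols of the expression table, and all 10 passed a filter that kept 13426 symbols, those with at least 1 FPKM (fragments per kilobase of transcript, scaled to the mapped fragments of the library) in at least 4 tumors. The tumors were xenografts of A375, a human BRAF-mutant melanoma cell line, grown on both flanks of NOG mice, a strain without T, B and NK cells, and were collected on day 5 of treatment. Mice received JQ1, an inhibitor of the BET family of bromodomain proteins, together with Vemurafenib, an inhibitor of mutant BRAF (J+V), JQ1 alone (J), Vemurafenib alone (V), or the vehicle of DMSO and cyclodextrin (control). JQ1 was given at 50 mg/kg daily and Vemurafenib at 25 mg/kg per dose with 2 doses a day, in the combination as alone. Each group held 4 tumors, the left (L) and right (R) flank tumors of 2 mice, so the 4 values of a group came from 2 animals and 1 cell line. RNA was depleted of ribosomal RNA and not selected for poly(A) tails, so histone mRNAs with and without a tail were both counted.

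Most histone mRNAs are made only while DNA is copied. Their genes lie in clusters, have no introns, and end in a short stem-loop that the protein SLBP binds, in place of a poly(A) tail, and the mRNA is degraded when S phase ends. Some cluster genes can also be read past the stem-loop to a polyadenylation site, which gives an mRNA that does not need SLBP. The variant genes lie outside the clusters, mostly have introns and poly(A) tails, and supply histones in any phase of the cell cycle. H2A.Z (H2AFZ) sits beside the start sites of genes, H2A.X (H2AFX) is the histone phosphorylated at DNA breaks, H3.3 (H3F3A and H3F3B) replaces H3 in transcribed chromatin, and H1.0 (H1F0) is the linker histone of slowly dividing and differentiated cells.

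The stem-loop is shown because it is the end that the replication-linked form of these mRNAs uses. On the hg19 assembly (GRCh37) with the GENCODE annotation, a 16-base match to the histone stem-loop lay within 300 bases after the coding end in 6 of the 10 genes, the 5 cluster genes and H2AFX. The 16 bases stand in capitals between 5 flanking bases on each side.
HIST1H2BK, chr6:27114140-27114165, minus strand: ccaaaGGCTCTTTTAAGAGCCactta
HIST1H1C, chr6:26055967-26055992, minus strand: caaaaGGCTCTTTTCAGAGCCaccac
HIST2H2BE, chr1:149857733-149857758, minus strand: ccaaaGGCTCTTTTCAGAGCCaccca
HIST1H2BD, chr6:26158810-26158835, plus strand: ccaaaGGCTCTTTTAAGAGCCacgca
HIST1H2AC, chr6:26124892-26124917, plus strand: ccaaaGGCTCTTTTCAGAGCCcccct
H2AFX, chr11:118965603-118965628, minus strand: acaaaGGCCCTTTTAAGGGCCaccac
No match was found after the coding ends of H1F0, H2AFZ, H3F3A and H3F3B. For HIST1H2BK and HIST1H1C the annotation held 1 transcript each, ending 5 and 4 bases after the stem-loop. HIST2H2BE, HIST1H2BD, HIST1H2AC and H2AFX each had an annotated transcript that ended more than 50 bases after it, the farthest 1729, 12747, 14432 and 1024 bases downstream. The annotation behind the deposited values was not found in the labels or methods, and a value per gene does not separate the mRNA ends.

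The gene bodies lie at chr6:27114140-27114634 for HIST1H2BK, chr1:149856009-149858232 for HIST2H2BE, chr6:26158350-26171577 for HIST1H2BD, chr6:26124373-26139344 for HIST1H2AC and chr6:26055968-26056698 for HIST1H1C. The variants lie at chr22:38201236-38203439 for H1F0, chr4:100869243-100871512 for H2AFZ, chr11:118964584-118966175 for H2AFX, chr1:226249552-226259720 for H3F3A and chr17:73772515-73781974 for H3F3B. HIST1H2BK, HIST2H2BE and HIST1H2AC each faced a cluster gene on the other strand, HIST1H2AH, HIST2H2AC and HIST1H2BC, with 251, 236 and 219 bases between the annotated starts. The promoters of those 3 genes are printed because each lies between a pair of genes whose changes are compared further on. The windows run from 250 bases before to 50 bases after the start and come from RefSeq (GRCh38.p14). Capitals mark the octamer ATTTGCAT, the CCAAT box and the TATA core TATAAA on either strand, which may adjoin or overlap.
HIST1H2BK, chr6:27146809-27147108, minus strand: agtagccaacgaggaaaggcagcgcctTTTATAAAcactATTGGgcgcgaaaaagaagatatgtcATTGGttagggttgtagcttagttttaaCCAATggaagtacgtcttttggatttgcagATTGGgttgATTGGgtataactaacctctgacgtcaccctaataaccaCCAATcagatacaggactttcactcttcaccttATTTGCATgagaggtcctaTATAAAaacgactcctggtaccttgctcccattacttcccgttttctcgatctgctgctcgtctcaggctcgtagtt
HIST2H2BE, chr1:149886633-149886932, minus strand: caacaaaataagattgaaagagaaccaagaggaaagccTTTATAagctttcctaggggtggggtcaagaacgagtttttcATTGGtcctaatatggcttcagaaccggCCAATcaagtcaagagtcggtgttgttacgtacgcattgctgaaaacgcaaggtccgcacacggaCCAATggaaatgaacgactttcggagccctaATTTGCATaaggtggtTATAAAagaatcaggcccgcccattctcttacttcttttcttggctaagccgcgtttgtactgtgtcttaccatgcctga
HIST1H2AC, chr6:26123922-26124221, plus strand: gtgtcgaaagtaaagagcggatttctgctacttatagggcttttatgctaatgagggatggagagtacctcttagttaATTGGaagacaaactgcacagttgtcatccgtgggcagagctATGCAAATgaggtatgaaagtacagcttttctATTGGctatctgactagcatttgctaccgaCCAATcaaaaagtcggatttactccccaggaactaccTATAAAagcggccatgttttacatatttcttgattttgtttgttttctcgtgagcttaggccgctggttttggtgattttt
Each of the 3 held the octamer, starting at position -46 in HIST1H2BK and HIST2H2BE and at -130 in HIST1H2AC, counted from the start of transcription. Of 27305 RefSeq promoter windows of this length, 1.8% held the octamer, 35.7% held CCAAT and 11.95% held TATAAA. Among the other members with a promoter window the octamer was present only in that of H3F3B, at position -76. A match is a description of the letters and not a measured binding site.

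Over all genes, 4979 of 13426 passed the test in J+V against control (2756 lower and 2223 higher), 3628 in J+V against J and 1786 in J+V against V, while J and V each gave 0 against control. The test was limma on log2(FPKM + 0.5) with Benjamini-Hochberg adjustment, called below 0.05. At an unadjusted p under 0.05, J against control gave 1140 genes and V against control gave 2160. Scaling every tumor to the same FPKM sum moved the median of all genes in J+V against control to -0.22 on the log2 scale, against -0.03 as deposited, and the split to 4726 lower and 820 higher, but all 9 histone genes called lower in J+V against control stayed called lower. Short RNA genes (SNORA, SNORD, SCARNA and MIR symbols) took 53.1 to 60.2% of the FPKM sum in J+V tumors and 42.2 to 53.0% in control tumors, and scaling to the sum without them gave 2357 lower and 2371 higher over all genes (median 0.02), with 9 of the 10 histone genes again called lower. Tumor FPKM sums were 1223331 to 1406986 in J+V, 1191325 to 1287101 in J, 1033865 to 1383426 in V and 970443 to 1281006 in control. Read depth is not known from these values. Of 7 melanocyte markers 4 passed the filter, PMEL, TYR and DCT did not, and 1 of the 7 was at 0 in every tumor. Their summed FPKM was 69.9 to 99.9 in J+V, 41.0 to 52.1 in J, 45.0 to 52.4 in V and 34.3 to 50.9 in control. In bulk tumors, fewer cells making a histone mRNA and less of it per cell cannot be told apart.

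All 5 cluster genes fell in J+V against control, J and V. Of the 10 genes, 9 were called lower in J+V against control, where 20.5% of all genes tested were called lower, and the same 9 were lower against J (18.4% of all genes) and against V (8.31% of all genes). In those 9 genes every J+V tumor lay below every control, J and V tumor, a pattern shown by 16.4% of all genes against control, 22.2% against J and 9.15% against V.

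HIST1H2BK, an H2B gene of the large cluster on chromosome 6, had 72.2, 67.8, 71.9 and 75.4 FPKM in J+V tumors (33L, 33R, 34L and 34R), 123.8, 182.2, 149.4 and 140.8 FPKM in J tumors (26L, 26R, 29L and 29R), 112.0, 121.2, 103.0 and 163.3 FPKM in V tumors (16L, 16R, 19L and 19R) and 127.9, 274.3, 137.1 and 148.8 FPKM in control tumors (2L, 2R, 5L and 5R). The J+V tumors were close to each other and all below the rest, while control tumor 2R stood far above the other control tumors. The log2 fold change on the log2(FPKM + 0.5) scale was -1.18 ± 0.19 (SE) against control, adjusted p = 0.00044.

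HIST2H2BE, an H2B gene of the cluster on chromosome 1, had 24.7, 26.7, 20.7 and 22.0 FPKM in J+V tumors, 38.6, 43.99, 38.8 and 43.7 FPKM in J tumors, 32.4, 36.3, 32.9 and 47.0 FPKM in V tumors and 36.1, 49.98, 36.1 and 41.5 FPKM in control tumors, in the same tumor order. It was the least abundant of the 5 cluster genes, and the J+V range did not reach that of any other group. Its log2 fold change against control was -0.78 ± 0.12, adjusted p = 0.00034.

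HIST1H2BD, another H2B gene of chromosome 6, had 121.6, 112.2, 136.3 and 133.1 FPKM in J+V tumors, 246.7, 263.1, 258.6 and 255.9 FPKM in J tumors, 168.4, 171.9, 161.5 and 240.7 FPKM in V tumors and 254.7, 216.9, 198.1 and 249.9 FPKM in control tumors. J tumors had the highest mean and 3 of the 4 V tumors lay between the J+V and the control ranges, with 19R up among the controls. The log2 fold change was -0.86 ± 0.11 for J+V against control, adjusted p = 9.8e-05.

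HIST1H2AC, an H2A gene, had 123.9, 144.2, 125.8 and 153.6 FPKM in J+V tumors, 193.9, 251.7, 257.0 and 228.9 FPKM in J tumors, 202.8, 187.7, 181.8 and 257.4 FPKM in V tumors and 193.3, 307.4, 262.4 and 251.0 FPKM in control tumors. J, V and control overlapped, and J+V lay below them. The log2 fold change was -0.87 ± 0.14 against control, adjusted p = 0.00032.

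HIST1H1C, which encodes the linker histone H1.2, fell the most of the 10. It had 108.3, 88.5, 150.4 and 118.6 FPKM in J+V tumors, 283.7, 438.3, 317.7 and 284.1 FPKM in J tumors, 185.2, 203.8, 218.0 and 342.3 FPKM in V tumors and 333.9, 662.2, 344.6 and 284.8 FPKM in control tumors. Control tumor 2R again stood far above the others, and 3 V tumors lay below all control and J tumors. The log2 fold change against control was -1.74 ± 0.25, adjusted p = 0.00017, and the mean FPKM of J+V was 0.286 of that of control.

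**Figure D1:**
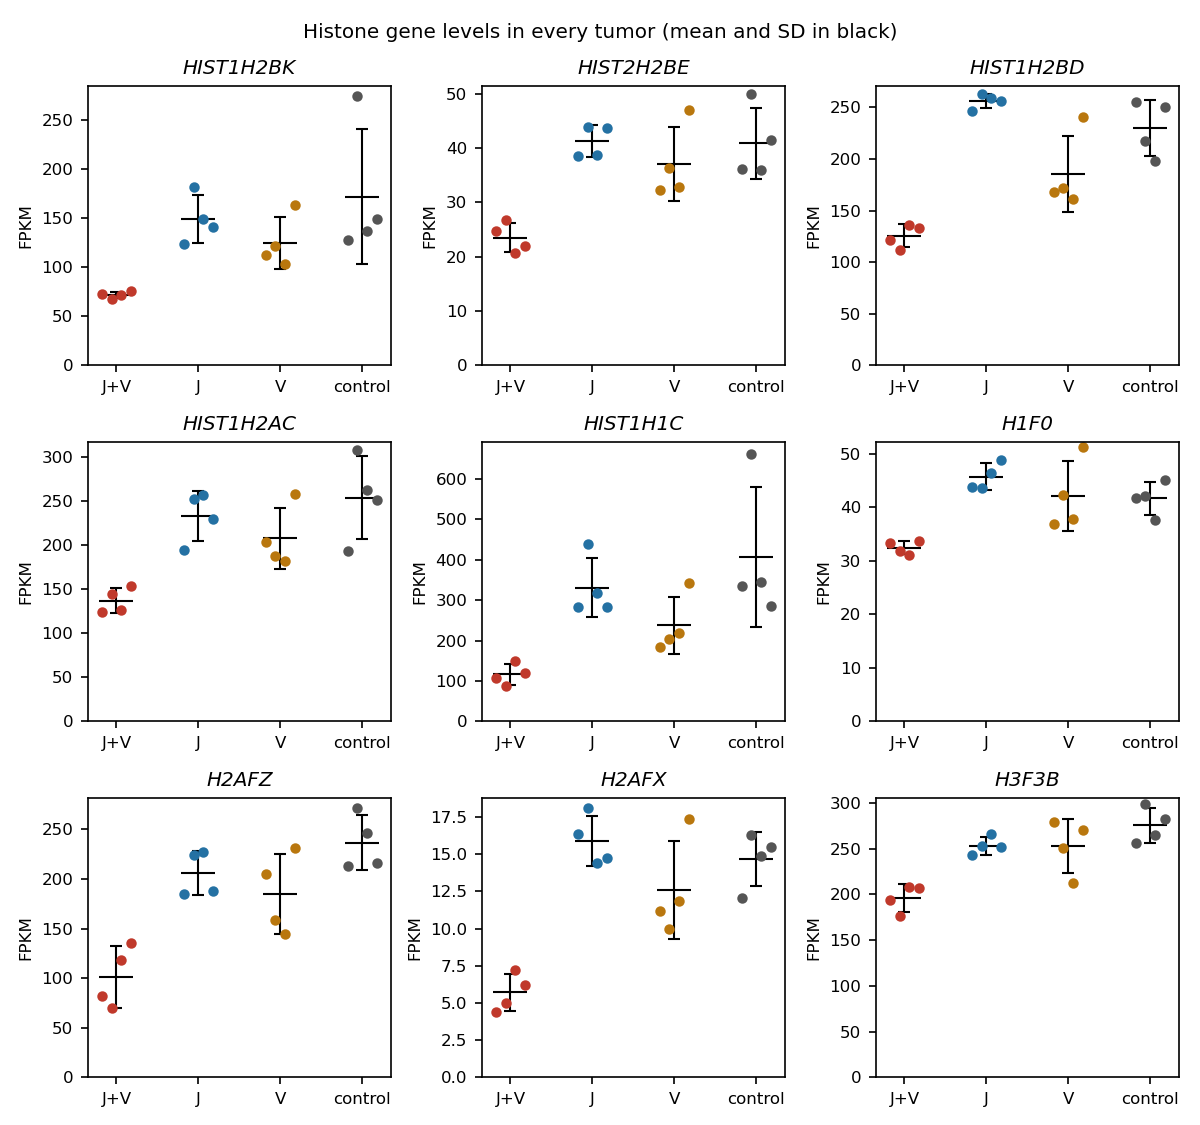
FPKM of 9 histone genes (panels) in each of 16 tumors (points), by group, with the group mean and SD (n = 4 tumors from 2 mice) in black. The J+V points sit below every J, V and control point in each panel. HIST1H1C, for example, had 88.5 to 150.4 FPKM in J+V and 284.8 to 662.2 FPKM in control.

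Of the 5 variant genes, 4 fell in J+V and H3F3A was not called. H2AFX and H2AFZ fell by more than 1 on the log2 scale, and H1F0 and H3F3B by less than 0.5.

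H2AFX had 4.42, 4.99, 7.22 and 6.22 FPKM in J+V tumors, 16.3, 18.1, 14.4 and 14.8 FPKM in J tumors, 11.2, 9.97, 11.8 and 17.4 FPKM in V tumors and 12.1, 16.2, 14.9 and 15.5 FPKM in control tumors. It was the lowest of the 9 steadily measured genes in every group, and the J+V tumors did not overlap the rest. Against control the log2 fold change was -1.30 ± 0.16, adjusted p = 6.9e-05.

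H2AFZ had 81.6, 69.5, 118.8 and 135.4 FPKM in J+V tumors, 185.2, 224.0, 226.9 and 188.0 FPKM in J tumors, 205.4, 158.8, 144.6 and 231.3 FPKM in V tumors and 212.9, 271.5, 246.0 and 216.4 FPKM in control tumors. The J+V tumors of mouse 33 were lower than those of mouse 34, and the highest of the 4 remained below the lowest V tumor. Against control the log2 fold change was -1.26 ± 0.19, adjusted p = 0.00024.

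H1F0 had 33.4, 31.7, 31.0 and 33.7 FPKM in J+V tumors, 43.9, 43.6, 46.5 and 48.9 FPKM in J tumors, 36.8, 42.4, 37.8 and 51.2 FPKM in V tumors and 41.8, 42.0, 37.7 and 45.1 FPKM in control tumors. Its J+V values were tightly grouped, and the fall was the smallest of those called, at -0.35 ± 0.09 on the log2 scale, adjusted p = 0.0064.

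H3F3B, the second gene for H3.3, had 193.4, 176.0, 208.1 and 206.5 FPKM in J+V tumors, 242.4, 252.7, 266.1 and 251.1 FPKM in J tumors, 278.5, 250.4, 212.5 and 269.7 FPKM in V tumors and 255.8, 299.0, 265.0 and 282.2 FPKM in control tumors. V tumor 19L came within a few FPKM of the highest J+V tumor without overlapping it. The log2 fold change against control was -0.49 ± 0.09, adjusted p = 0.00069.

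H3F3A did not give a usable level. It was listed between 0.0040 and 0.0064 FPKM in 10 tumors and between 5.86 and 24.9 FPKM in the other 6, namely 24.9 in J+V tumor 33L, 8.65 in J+V tumor 34L, 7.19 and 5.86 in J tumors 29L and 29R, 14.2 in V tumor 16L and 6.58 in control tumor 2R. The tumors of 1 mouse could fall on either side, and each group had 2 or 3 tumors in the low class. H3F3AP4, a processed copy of the gene on chromosome 2 (chr2:175584636-175585046), was at 535.1, 514.2, 618.1 and 586.8 FPKM in J+V tumors, 557.6, 574.4, 572.9 and 581.9 FPKM in J tumors, 776.4, 581.6, 573.0 and 635.7 FPKM in V tumors and 558.5, 575.3, 606.1 and 665.7 FPKM in control tumors. The copy was chosen for mention after its values were seen. The annotated copy matched an H3F3A transcript of 799 bases over the 411 bases of the copy, with 0 mismatches. Reads from H3F3A and from the copy cannot be told apart over that stretch. H3F3A made up at most 4.45% of the summed FPKM of both. FPKM is scaled to transcript length and the 2 lengths differ, so neither this share nor the sum measures reads or H3.3 mRNA. The sum averaged 572 ± 47 FPKM in J+V, 575 ± 13 in J, 645 ± 101 in V and 603 ± 46 in control (SD, n = 4 tumors each), and J+V differed from control by -0.08 on the log2 scale with an exact two-sided permutation p of 0.40 (adjusted p = 0.60 over 3 comparisons of J+V). Other histone genes also have near-identical coding sequences, and how the deposited values split shared reads, including reads from mouse cells, was not stated in the labels or methods.

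**Figure D2:**
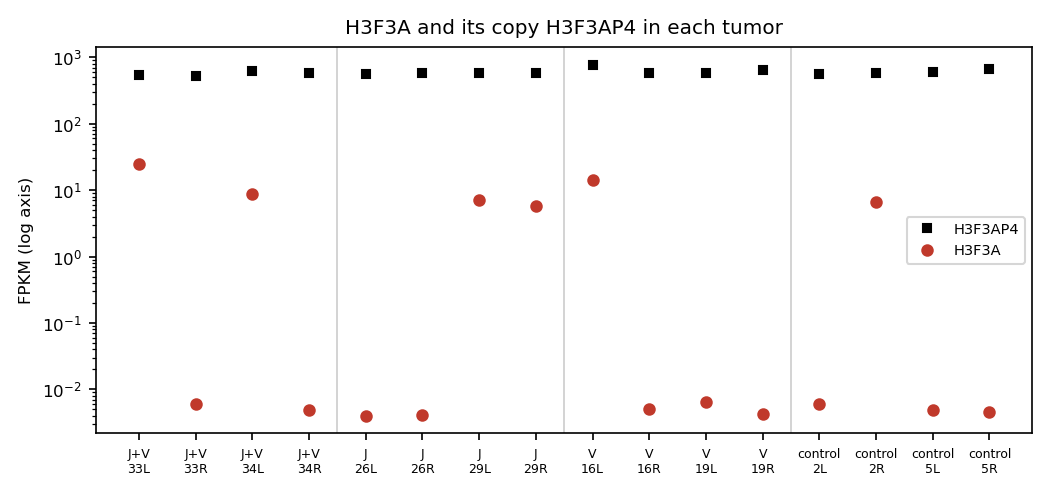
FPKM of H3F3A (circles) and of its copy H3F3AP4 (squares) in each of 16 tumors, on a log axis, with J+V on the left and control on the right. The copy stayed between 514.2 and 776.4 FPKM in every tumor, while H3F3A was either below 0.01 FPKM or above 5 FPKM.

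Neither agent alone changed any of the 10 genes past the threshold. Against control, 0 genes of the 10 were called lower in J and 0 in V, where 0% and 0% of all genes tested were called lower. Log2 fold changes of the 9 genes other than H3F3A ran between -0.24 for HIST1H1C and 0.16 for HIST1H2BD in J, and between -0.74 for HIST1H1C and 0.00 for H1F0 in V. In V the values of 8 of the 9 were below 0, with adjusted p between 0.19 for HIST1H1C and 0.99 for H1F0. HIST1H2BD was called in V against control, at 1 gene of the 10, when V tumor 19R was left out, a setting in which 116 of all genes were called lower and 61 higher.

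J and V were also set against each other, and no member was called there, with 0.127% of all genes called higher in J. HIST1H2BD was nearest, at 0.48 ± 0.11 on the log2 scale, adjusted p = 0.091, and it was called without V tumor 19R and without mouse 19, where 72 and 57 of all genes were called higher in J. The interaction of the 2 agents, J+V minus what the J and V changes add up to in log2 units, was called for 0 of the 10 and 0% of all genes. Its estimates were below 0 for all 9 genes other than H3F3A, with -1.18 ± 0.23 for H2AFX (adjusted p = 0.098) and -0.71 ± 0.16 for HIST1H2BD (adjusted p = 0.11). Leaving out J+V tumor 34L gave 2 called genes, H2AFX and HIST1H2BD, and leaving out mouse 34 gave 3, with H2AFZ added. Over all genes, 127 were called without 34L (102 lower) and 363 without mouse 34 (315 lower).

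Against V the J+V call was the least stable. H2AFX, the most changed, was at -1.07 ± 0.16 (adjusted p = 0.0014), and H1F0, the least changed, at -0.36 ± 0.09 (adjusted p = 0.017). The count of 9 lower genes fell to 4 without V tumor 19R, to 4 without control tumor 5L, to 4 without mouse 19 and to 2 without mouse 33, and to 2 when the flank tumors of each mouse were averaged. Over all genes the lower calls against V fell in the same settings, to 427, 441, 261, 221 and 131, against 1116 with all tumors. V tumor 19R was the highest V tumor in 8 of the 9 genes, and control tumor 2R was the highest control tumor in 7 of the 9. MKI67, a marker of cycling cells, was at 26.4 FPKM in V tumor 19R, within the V range of 20.7 to 29.0, and at 30.01 FPKM in control tumor 2R, the highest of the 4. V tumor 19R also had the largest FPKM sum of the V tumors (1383426), while the sum of control tumor 2R lay within the control range. Over the other histone genes of the clusters, both tumors had the highest log2 mean of their group, 6.09 in 19R and 6.31 in 2R. The part of MKI67 or of the FPKM sum in these levels was not tested.

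**Figure D3:**
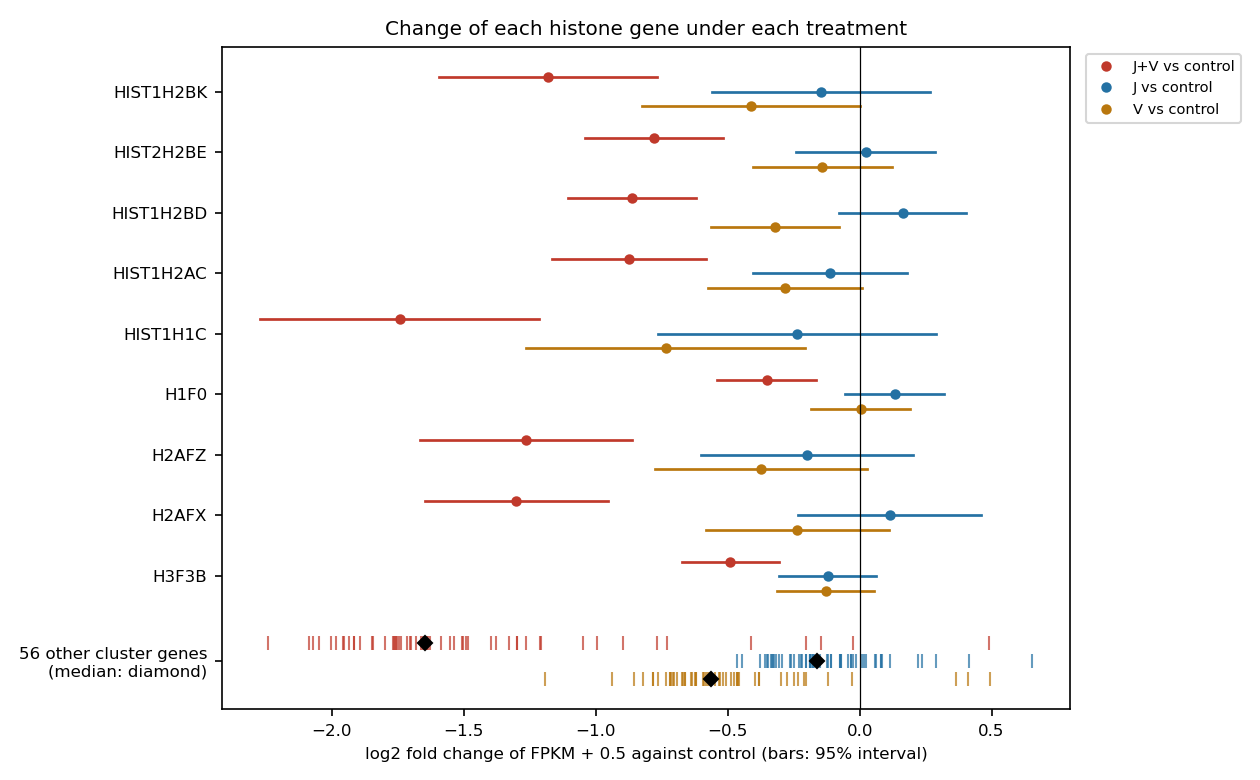
Log2 fold change of FPKM + 0.5 against control with its 95% interval for 9 histone genes under J+V, J and V, and below them each of 56 other cluster histone genes as a tick with the median as a diamond. J+V intervals lie left of 0 for each of the 9 genes, and the J+V diamond stands at -1.65.

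The other histone genes of the clusters fell further than most of these 10. Of 67 such genes measured, 56 passed the filter, and 50 were lower and 0 higher in J+V against control, and their median was -1.65 on the log2 scale. The 3 most changed were HIST1H2BB at -2.24 ± 0.21 (adjusted p = 3.0e-05), HIST1H2BM at -2.09 and HIST1H3C at -2.07, genes for H2B, H2B and H3. Among the 5 cluster genes described here the median was -0.87, and among the 5 variants it was -0.49. The median of all 13426 genes was -0.03.

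Each gene was then set against the mean log2(FPKM + 0.5) of the 56 other cluster genes of the same tumor, a difference that scaling whole tumors leaves unchanged apart from the pseudocount. That mean lay 1.76, 1.70, 1.20 and 1.25 below the control mean in the 4 J+V tumors, which are 33L, 33R, 34L and 34R. The difference was higher in J+V than in control, so the gene fell less than the others, for H1F0 by 1.12, for H3F3B by 0.98, for HIST2H2BE by 0.70, for HIST1H2BD by 0.61, for HIST1H2AC by 0.60 and for H2AFX by 0.17. In each of these 6 genes the 4 J+V tumors lay above the 4 control tumors, with an exact two-sided permutation p of 0.029, the smallest that 4 against 4 tumors allow, and adjusted p = 0.043 over 12 tests. The adjusted p is under 0.05 only because many of the 12 tests tie at this smallest p, so it does not rank the genes. The tests also overlap. HIST2H2BE, HIST1H2AC and HIST1H2BK were each tested again against the cluster gene they face, which is itself among the 56. The gap was narrow for HIST1H2AC (1.97 in 34L, 1.96 in control 2R), HIST2H2BE (-0.60 in 34L, -0.65 in control 2R) and H2AFX (-2.21 in 34R, -2.25 in control 2R). In all of the 6 but H2AFX, both J+V tumors of mouse 33 lay above both of mouse 34. H2AFZ (0.21, exact p = 0.14), HIST1H2BK (0.29, exact p = 0.26) and HIST1H1C (-0.27, exact p = 0.49) were not separated from the other cluster genes, with adjusted p of 0.17, 0.28 and 0.49. With a pseudocount of 1 HIST1H2AC was no longer called (0.57, adjusted p = 0.076), and whichever control tumor was left out, none of the 6 was called, with adjusted p between 0.069 and 0.129, while the differences stayed at 1.08 to 1.19 for H1F0, 0.965 to 1.013 for H3F3B, 0.64 to 0.76 for HIST2H2BE, 0.54 to 0.73 for HIST1H2BD, 0.54 to 0.67 for HIST1H2AC and 0.15 to 0.19 for H2AFX. With a control tumor left out, every J+V tumor still lay above the remaining control tumors in these 6 genes. The exact p moves in large steps with so few tumors. With any J+V tumor left out HIST1H2BD was not called (adjusted p between 0.076 and 0.086) and the other 5 were, and without J+V tumor 33R H2AFZ was called as well (0.30, adjusted p = 0.043). These p-values take the 4 tumors of a group as independent, although they came from 2 mice.

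In V the same differences from control were 0.51 for H1F0, 0.38 for H3F3B, 0.37 for HIST2H2BE, 0.19 for HIST1H2BD, 0.23 for HIST1H2AC and 0.27 for H2AFX. In J they were 0.25, -0.01, 0.14, 0.28, 0.00 and 0.23 for the same 6 genes. These values were not tested.

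**Figure D4:**
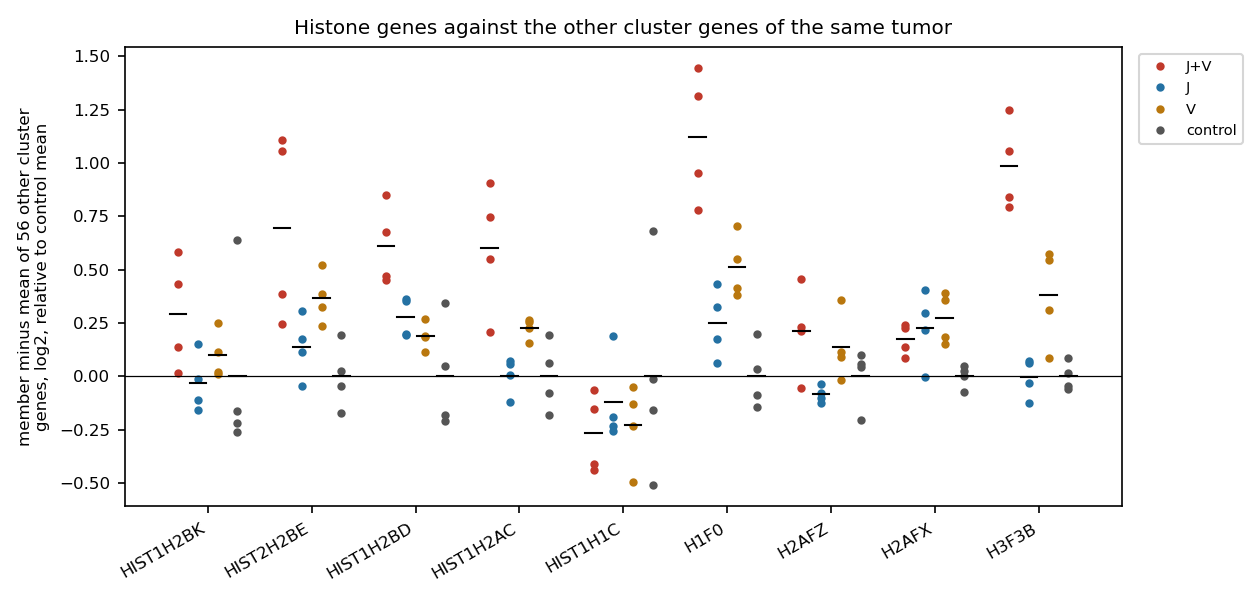
Each gene minus the mean of 56 other cluster histone genes in the same tumor, on the log2 scale, with the control mean of each gene set to 0. Points are tumors and short lines are group means. H1F0 and H3F3B stand highest in J+V, with group means of 1.12 and 0.98, and HIST1H1C is at -0.27.

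The annotated mRNA ends were set beside these changes. The 4 members with a stem-loop and a longer annotated transcript had log2 fold changes between -1.30 and -0.78 in J+V against control, and the 2 with a stem-loop only, HIST1H2BK and HIST1H1C, had -1.18 and -1.74. The 3 steadily measured members with no stem-loop had between -1.26 and -0.35. Of the other cluster genes tested that had a stem-loop, the 11 with an annotated transcript ending more than 50 bases after it had a median of -1.26, with 8 called lower, and the 38 with none had a median of -1.69, with 36 called lower. This grouping was made after the values were seen and was not tested.

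Head-to-head partners share the stretch between their starts, and the difference between the member and its partner was estimated higher in J+V than in control for each of the 3 pairs. HIST2H2BE minus HIST2H2AC was -2.18, -1.97, -2.92 and -2.48 on the log2 scale in J+V tumors and -3.25, -3.23, -3.64 and -3.37 in control tumors, a change of 0.98 with no overlap (exact two-sided permutation p = 0.029, adjusted p = 0.043). HIST1H2AC minus HIST1H2BC was -0.20, 0.08, -0.57 and -0.47 in J+V tumors and -1.29, -0.93, -1.13 and -1.33 in control tumors, a change of 0.88 with no overlap (exact p = 0.029, adjusted p = 0.043). HIST1H2BK minus HIST1H2AH was 0.31, 0.15, -0.50 and -0.25 in J+V tumors and -0.98, -0.26, -1.14 and -1.12 in control tumors, a change of 0.80 in which control tumor 2R overlapped J+V (exact p = 0.057, adjusted p = 0.076). With any control tumor left out neither of the first 2 pairs was called, at 0.89 to 1.03 and 0.82 to 0.96. The J+V tumors and the remaining control tumors still did not overlap there. Of the partners, HIST1H2BC also had an annotated transcript ending more than 50 bases after its stem-loop, and HIST2H2AC and HIST1H2AH did not. The partners themselves averaged 126 ± 24 FPKM in J+V and 427 ± 55 in control for HIST2H2AC, 170 ± 36 and 566 ± 68 for HIST1H2BC, and 78 ± 22 and 302 ± 35 for HIST1H2AH (SD, n = 4 tumors each, J+V and then control for each gene).

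**Figure D5:**
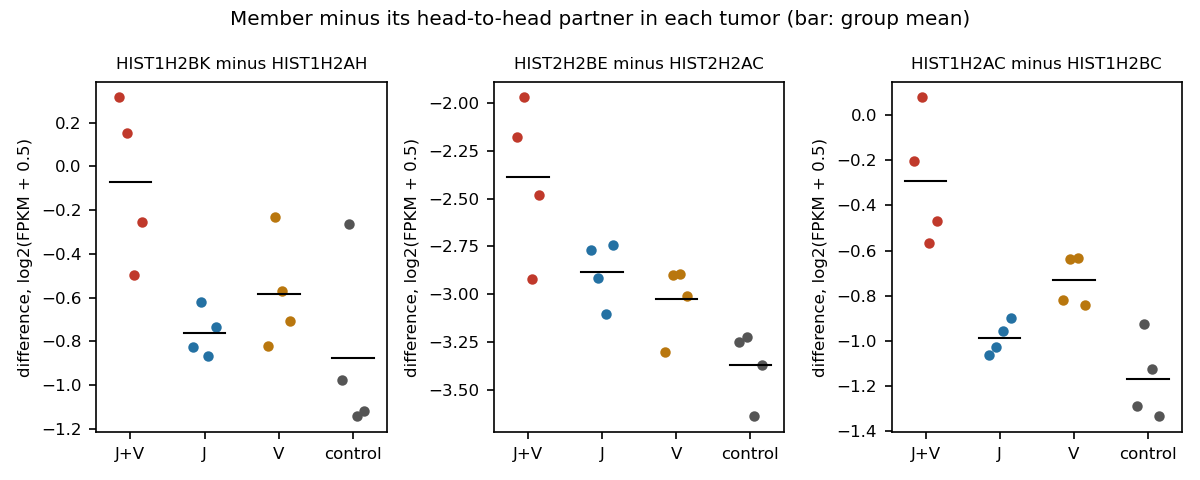
Difference in log2(FPKM + 0.5) between a histone gene and its head-to-head partner in each tumor (points), with group means as lines. Mean differences were -2.39 in J+V and -3.37 in control for HIST2H2BE, -0.29 and -1.17 for HIST1H2AC, and -0.07 and -0.87 for HIST1H2BK, J+V given before control.

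The J+V tumors differed by mouse. The mean of the other cluster genes was lower in both tumors of mouse 33 (4.45 and 4.51 on the log2 scale) than in those of mouse 34 (5.01 and 4.96). H2AFZ, H2AFX, HIST1H1C, HIST1H2BD and H3F3B were also lower in both tumors of mouse 33, whereas HIST2H2BE was higher there, at 24.7 and 26.7 FPKM in mouse 33 and 20.7 and 22.0 FPKM in mouse 34. HIST1H2BK, HIST1H2AC and H1F0 did not separate the mice. MKI67 was at 10.3 and 9.52 FPKM in mouse 33 and at 21.5 and 14.1 FPKM in mouse 34. With 2 mice, these differences are given as values with no test.

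Among 7 other variant histones, 5 were lower and 1 higher in J+V against control, and the median of the 7 was -0.45 on the log2 scale. CENPA, the H3 of centromeres, was at -1.52 ± 0.23 (adjusted p = 0.00028), the linker histone H1FX at -0.60 and H3F3C, an H3.3-like gene, at -0.53. H2AFJ rose by 0.46 ± 0.12 (adjusted p = 0.010), with 4.55 ± 0.78 FPKM in J+V and 3.17 ± 0.53 FPKM in control, and was named after its value was seen. The second H2A.Z gene, H2AFV, fell by 0.44 and macroH2A1 (H2AFY) fell by 0.45.

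All 4 replication-coupled chaperones were lower in J+V against control, with CHAF1A at -1.31 ± 0.13 (adjusted p = 2.6e-05), ASF1B at -1.17 and CHAF1B at -0.80. CHAF1A and CHAF1B are subunits of CAF-1, which deposits H3 and H4 behind the fork. Of 14 genes that deposit or remove variants, 6 were lower and 1 higher. ANP32E, which removes H2A.Z, was at -0.67 ± 0.16 (adjusted p = 0.0047), UBN1, a subunit of the HIRA complex that places H3.3, at -0.53, and ATRX, which places H3.3 in heterochromatin, at 0.41 (adjusted p = 0.035). HIRA itself was at -0.27 and DAXX at -0.24, and neither was called.

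Of 11 genes for histone mRNA 3′ ends, 4 were lower and 0 higher. SLBP averaged 35.6 ± 4.4 FPKM in J+V and 57.8 ± 4.9 FPKM in control, a log2 fold change of -0.70 ± 0.10 (adjusted p = 0.00018). LSM11, a part of the U7 particle that cuts after the stem-loop, was at -0.57 and CSTF2, a cleavage factor of polyadenylation, at -0.48. NPAT, the activator of cluster histone genes, was at 0.12 and not called. Of 7 kinases and readers of phosphorylated H2A.X, 3 were lower and 1 higher, with RNF168 at -0.55, MDC1 at -0.47 and ATR at 0.38 (adjusted p = 0.0019).

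All 11 S phase genes were lower in J+V against control and against J, and 10 were lower against V. RRM2, a subunit of ribonucleotide reductase, was at -1.64 ± 0.18 (adjusted p = 3.3e-05), CCNA2 at -1.503 and MCM4 at -1.38, and the median of the 11 was -1.15. MKI67 averaged 13.9 ± 5.5 FPKM in J+V and 26.8 ± 3.4 FPKM in control, at -0.99 ± 0.20 (adjusted p = 0.0015). The part of cell cycle genes in the histone levels was not tested. HEXIM1, which is known to rise under BET inhibition, was at -0.11 ± 0.11 in J+V and 0.04 ± 0.11 in J against control and was not called. SERPINI1, also used as a marker of BET inhibition, was at 0.54 ± 0.18 (adjusted p = 0.031) in J+V and 0.37 ± 0.18 in J (adjusted p = 0.62). In V, without a BET inhibitor, HEXIM1 was at 0.13 and SERPINI1 at 0.67 against control, and neither was called.

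Markers of other cell types were measured in the same tumors. Host fibroblasts, endothelial and myeloid cells in these xenografts are mouse cells, while reads were aligned to human hg19. Values of these human symbols can come from A375 cells or from mouse reads, which cannot be told apart here. They do not measure the content of host cells. Summed FPKM of 6 fibroblast genes was 62.4 to 114.9 in J+V and 36.2 to 121.4 in control, and 3 of the 6 were called higher in J+V against control, DCN, LUM and PDGFRB at 1.67, 1.61 and 0.72 on the log2 scale. COL1A1 was at -0.16, COL1A2 at 0.16 and COL3A1 at 0.50, and none of these was called. Summed FPKM of 5 endothelial genes was 0.98 to 1.94 in J+V and 0.70 to 1.20 in control, and none of the 5 passed the filter. That of 5 myeloid genes was 21.8 to 24.7 in J+V, 24.9 to 27.9 in J, 17.2 to 24.9 in V and 17.4 to 21.1 in control. Of these myeloid genes only CD68 passed the filter, at 0.22 in J+V against control and not called. Of 4 melanocyte genes tested, S100B at 1.68 and MLANA at 0.55 were called higher in J+V against control. The part of these markers in the histone results was not tested.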

How the data were processed

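RNA of 16 A375 xenograft tumors (4 groups of 4) was measured by RNA-seq after ribosomal depletion with a ScriptSeq library. Per the labels and the study's methods, the authors aligned reads with TopHat (TopHat2 in the methods) to hg19, and Cufflinks gave the deposited FPKM per gene symbol. Exact versions, the gene annotation and the handling of mouse reads were not given in the sources used here. No counts are used, so depth and counting error are unknown. FPKM values were tested as log2(FPKM + 0.5) in limma 3.58.1 (R 4.3.3), with an intensity trend, 1 model over all 16 tumors with 12 residual degrees of freedom, and mouse as a block (estimated correlation -0.067). Symbols with at least 1 FPKM in at least 4 tumors were kept and p-values adjusted over all 13426. Before use, the script recovered most of the largest planted changes in simulated data. The simulation held no mouse effect, so it checked the code and not the calls reported here. Within-tumor differences used exact two-sided permutation tests over tumors, adjusted over 12 tests. A limma p-value rests on the spread within groups over all 16 tumors from 8 mice, moderated over genes. A permutation p-value rests on the tumors of the 2 groups compared. Each group held only 2 mice, and all tumors came from 1 cell line. The negative correlation did not widen the errors for tumors of the same mouse, so clustering by mouse in single genes is not covered.

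Symbols were matched to RefSeq and GENCODE through older symbols, positions are hg19 unless stated, and transcripts were aligned with BLAST+ 2.17.0. The stem-loop was searched by its usual degenerate form on the transcribed strand. All 10 genes were named with every tumor's value, and from each further list at most 3 called genes with the largest change in J+V against control, beside HEXIM1, SERPINI1, MKI67 and SLBP. HIRA, DAXX, NPAT, H2AFJ, H2AFV, H2AFY, H3F3AP4 and the head-to-head partners were named outside this rule. The members and lists were chosen with earlier results of these data known. Alternatives covered the pseudocount, the filter, the scaling, the block, the groups fitted and each tumor or mouse left out.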

Additional observations from a re-analysis of the deposited data

Results flagged for a closer look

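In 40 sets of 4 tumors (10 genes in 4 groups), 5 held a tumor set far apart from the other 3. Chance gives about 1 in 20 for independent sets with a normal spread. These sets share the same 16 tumors, and H3F3A was near 0 in 10 of them, so the 5 cannot be read as an excess. HIST1H2BK reached 274.252 FPKM and HIST1H1C 662.227 FPKM in control tumor 2R. HIST1H2BD reached 240.705 FPKM in V tumor 19R. H3F3A was at 14.2492 FPKM in V tumor 16L and at 6.57545 FPKM in control tumor 2R, with the other tumors of those groups near 0. The 9 genes called lower in J+V against control were also called lower without control tumor 2R and without V tumor 19R.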

How the results depend on the processing

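Values are FPKM with unknown depth, so low genes such as H2AFX carry an unknown counting error, and the 4 tumors of a group came from 2 mice. No paired analysis was possible because no mouse was shared between groups. Of 38 alternatives, all kept 9 genes lower in J+V against control except a stricter rule (more than 2-fold, unadjusted p under 0.01, adjusted p under 0.1), which gave 4, with 5 against J, 2 against V and 1 for the departure from additivity (H2AFX). Averaging each mouse left 2 genes lower against V. Leaving out single tumors or mice gave 9 to 9 against control, 8 to 9 against J, 2 to 9 against V, 0 to 1 lower in V against control, 0 to 1 higher in J against V and 0 to 3 for the departure. The lowest counts against V came without mouse 33 (2), mouse 19 (4), V tumor 19R (4) and control tumor 5L (4), where the lower calls over all genes were 221, 261, 427 and 441, against 1116. The cause was not tested. Over all genes, the fold rule called 514 lower or higher in J+V against control, against 4979. The member counts under this rule are lower calls. Its counts over all genes against J, against V and for the departure are not given, so the member counts there have no share to be read against. No called fold change of a member changed sign. Within-tumor differences were tried under 11 alternatives chosen after seeing the data, and of 132 values 37 lost and 2 gained their call, most with 1 control tumor left out. Restricting the other cluster genes to the 50 with a mean of at least 5 FPKM gave the call for H2AFZ (0.32, adjusted p = 0.038). The sum of H3F3A and its copy was also added after seeing the data.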
